A study of Mus musculus with 48 samples.

Results

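The granins and prohormone processing genes are 10 named genes of the dense-core secretory granule, the vesicle in which endocrine cells store peptide hormones. They were chosen by name, not by their values, and are 10 of the 39017 Ensembl genes counted. Each of the 10 identifiers was found in the count table and passed the low-count filter in every comparison. The list holds the granins Chga, Chgb, Scg2 and Scg3, the chaperone gene Scg5, the convertase genes Pcsk1 and Pcsk2, the carboxypeptidase gene Cpe, and the granule membrane protein genes Ptprn and Ptprn2.

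Messenger RNA was sequenced from βTC3, a mouse insulinoma line, and AJ-5257-1 (here AJ), a second mouse line grouped with it as a pancreatic neuroendocrine tumour line, in 48 libraries that form 16 groups of 3. The study asked what the activin receptor ALK7 does in such cells. All cells carried the plasmid PB-33, either empty (vector) or with an insert switched on by doxycycline (dox, 2 µg/ml). The insert was constitutively active ALK7 (ALK7-CA) in both lines and, in AJ alone, wild-type ALK7. In batch 1, each line had vector cells with dox for 0, 2 or 24 h and ALK7-CA cells with dox for 2 or 24 h, and none of them had ligand. Batch 2 had vector cells of each line without dox, left alone or given activin B (50 ng/ml) for 24 h. It also had AJ cells with wild-type ALK7 and 24 h of dox, with and without the same ligand. AJ cells with ALK7 thus differed from AJ vector cells of batch 2 in both plasmid and dox, and these cannot be told apart. Whether a plasmid line was 1 clone or a pool is not given in the labels. Replicates are wells plated in triplicate, so p-values measure only the spread between these wells, which may be technical.

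In a dense-core granule, granins aggregate with prohormones in the trans-Golgi and help to form the granule core. Prohormone convertases then cut the precursors at paired basic residues, carboxypeptidase E trims the basic residues left at the cut ends, and the mature peptides are kept until a stimulus calls for release. Chromogranin A, the protein of Chga, is also the usual blood and tissue marker of neuroendocrine tumours, and Ptprn and Ptprn2 encode the islet autoantigens IA-2 and phogrin.

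The promoters of 4 members are shown because these genes carry the main contrasts of the data. Chga and Chgb take opposite places in the lines, and Scg2 and Pcsk1 were lower under several treatments. The sequences are RefSeq's (GRCm38.p6) and run from 250 bases before to 50 bases after the annotated start, 5′ to 3′ on the gene's strand. Capitals mark matches on either strand to the cAMP response element TGACGTCA, its short core TGACG (which also lies inside each full element), the SMAD motifs CAGAC and GGCGCC, and the TATA box TATAAA. Chga lies at chr12:102554691-102554990 (plus strand), Chgb at chr2:132781392-132781691 (plus), Scg2 at chr1:79439977-79440276 (minus) and Pcsk1 at chr13:75089607-75089906 (plus).
Chga: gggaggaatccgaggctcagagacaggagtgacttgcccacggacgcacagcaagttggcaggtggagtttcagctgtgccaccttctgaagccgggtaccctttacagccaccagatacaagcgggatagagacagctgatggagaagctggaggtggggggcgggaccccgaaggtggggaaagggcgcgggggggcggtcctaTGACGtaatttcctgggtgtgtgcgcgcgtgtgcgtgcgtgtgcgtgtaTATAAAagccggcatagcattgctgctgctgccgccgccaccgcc
Chgb: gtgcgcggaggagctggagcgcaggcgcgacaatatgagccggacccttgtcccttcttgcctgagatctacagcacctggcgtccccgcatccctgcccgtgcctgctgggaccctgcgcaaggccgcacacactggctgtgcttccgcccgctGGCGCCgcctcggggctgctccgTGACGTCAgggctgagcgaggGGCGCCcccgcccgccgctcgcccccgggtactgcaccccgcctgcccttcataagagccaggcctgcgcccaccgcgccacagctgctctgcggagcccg
Scg2: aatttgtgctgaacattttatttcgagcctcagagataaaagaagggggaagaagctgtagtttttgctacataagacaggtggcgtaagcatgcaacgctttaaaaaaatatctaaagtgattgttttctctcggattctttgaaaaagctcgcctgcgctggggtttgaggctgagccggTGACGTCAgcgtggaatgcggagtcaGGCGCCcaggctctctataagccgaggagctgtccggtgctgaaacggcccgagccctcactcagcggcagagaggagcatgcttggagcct
Pcsk1: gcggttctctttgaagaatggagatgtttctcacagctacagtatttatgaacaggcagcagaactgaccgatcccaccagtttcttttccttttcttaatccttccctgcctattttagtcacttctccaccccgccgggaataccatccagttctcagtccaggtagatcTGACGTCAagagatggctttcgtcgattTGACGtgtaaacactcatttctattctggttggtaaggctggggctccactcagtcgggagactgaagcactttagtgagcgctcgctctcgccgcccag

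With the annotated start as position 0, the full cAMP response element spans positions −72 to −65 in Chgb, −68 to −61 in Scg2 and −78 to −71 in Pcsk1. Of the 10 promoters found for 9 members (Ptprn has 2, Cpe none in the table used), 3 held TGACGTCA, against 1.79% of all 32851 mouse promoters in the same table. The short core TGACG stood in 8 of 10 promoters and in 20.8% of all promoters. CAGAC, the short SMAD box, stood in 1 of 10 against 49.6% of all. The longer motif GGCGCC stood in 5 of 10 (Chgb, Scg2, Scg5, Pcsk2 and Ptprn2) against 11.9%, and TATAAA in 1 of 10 (Chga) against 13.6%. The TATAAA of Chga spans positions 5 to 10, after the annotated start. All of these are matches of letters in 1 window per start and do not show binding.

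Library totals ran from 17.98 to 38.8 M counts (median 26.1 M), and a member had 549 to 289574 counts in a library. Levels below are CPM (reads of a gene per M reads of the library) after 1 TMM scaling over all 48 libraries. Statements that groups overlap or lie apart describe only the 3 libraries of each. The share of all genes whose groups lie apart is not given, so such statements add no support to a call. Summed over 10 beta cell markers, βTC3 libraries held 17741 to 33316 CPM and AJ libraries 502 to 1687, so the label of insulinoma fits βTC3, while both lines express the granins. Markers of other cells were low in every library, with sums of at most 6.27 CPM over 7 acinar, 5.62 over 4 endothelial, 9.22 over 7 fibroblast and 6.59 over 5 leukocyte genes. Acvr1c, the gene of ALK7, measured 114 to 164 CPM in βTC3 vector cells of batch 1 and 69.3 to 137 in ALK7-CA cells, and in AJ 8.88 to 11.1 and 2.47 to 6.0. AJ cells with wild-type ALK7 and no ligand gave 10.3 to 13.4 CPM against 10.1 to 10.7 in vector cells of batch 2, so that the groups overlapped, and with activin B they gave 3.32 to 3.95 against 3.27 to 4.01. The counts thus give no check of the plasmid labels. Replicate 1 of AJ ALK7-CA at 24 h stood apart in 4 genes, which were chosen from vector cells without dox or ligand. They had 50 CPM or more in every such βTC3 library and 0.1 CPM or less in every such AJ library. In that replicate they stood at a median of 4.92% of their level in those βTC3 cells (range 3.61 to 6.54%). No other AJ library passed a median of 0.0528%, though the untreated AJ vector libraries were low by the choice of genes. For members that passed in AJ ALK7-CA at 24 h against vector, the change is given below with and without replicate 1. Other values that use this group, among them differences of effects and ratios, include replicate 1 unless stated.

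In batch 1, replicate 3 also differed from replicates 1 and 2 in every group, and the difference followed the GC content of the transcripts. For the 20% of genes lowest in GC, replicate 3 lay 0.19 above the mean of the others on the log2 CPM scale (median over genes), and for the 20% highest it lay at −0.27. The same comparison within members gave a median over 10 groups of −0.35 for Chga (GC 58.4%) and −0.41 for Ptprn (59.5%), and 0.18 for Pcsk1 (40.6%). In 10 of 10 batch 1 groups, Chga, Pcsk2 and Ptprn were lowest in replicate 3. Pcsk2 (GC 46.9%) did not follow the GC trend, with a median of −0.099 where genes of 43.6 to 47.4% GC lay at 0.13. Low values in replicate 3 widen the spread of Chga, Pcsk2 and Ptprn, above all Chga and Ptprn. Values without replicate 3 of every group, chosen after seeing the data, are given where they change a call.

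**Figure D1:**
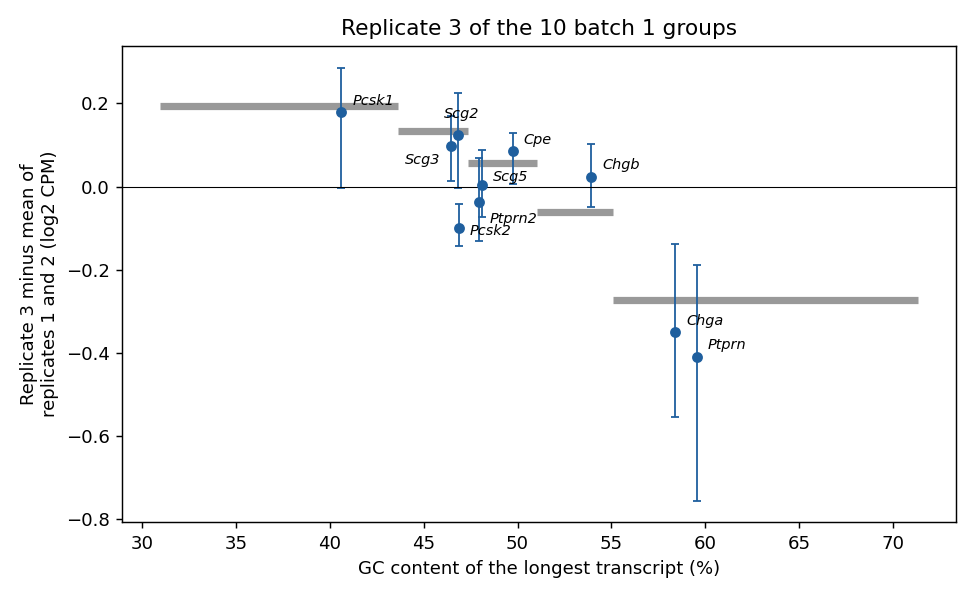
Replicate 3 minus the mean of replicates 1 and 2 (log2 CPM, vertical axis) for each member against the GC content of its longest transcript (percent, horizontal axis); points are medians and lines ranges over the 10 groups of batch 1, and grey bars are medians of all genes in 5 bins of GC. Chga and Ptprn lie lowest, at −0.35 and −0.41, where the bar for the most GC-rich genes stands at −0.27.

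Between the lines, the granins were set in opposite proportions: βTC3 cells without dox or ligand had far more Chga and far less Chgb than AJ cells. In batch 1, Chga was 5.84-fold higher and Chgb 9.85-fold lower in βTC3, and in batch 2 the folds were 8.57 and 17.3. Both convertase genes, Scg2, Ptprn and, by less, Cpe were also higher in βTC3. Of the 10 members, 6 were higher and 3 lower in batch 1, where edgeR called 72.1% of the 15642 genes tested (36.5% higher and 35.6% lower), and 6 were higher and 4 lower in batch 2, where it called 76.1% (37.6% and 38.5%). With most genes called, the share of members called lies near the background, and the contrast lies in the sizes. The median log2 difference was 0.83 over the members and −0.02 over all genes in batch 1, and 0.51 and −0.01 in batch 2.

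Chga (ENSMUSG00000021194, GRCm38 chromosome 12, 102554969 to 102565028, plus strand) encodes chromogranin A, and its values at 0 h in batch 1 were 2646, 2794 and 1925 CPM in βTC3 and 439.8, 439 and 371 CPM in AJ. The lowest βTC3 library lay above every AJ library. Chgb (ENSMUSG00000027350, GRCm38 chromosome 2, 132781278 to 132795079, plus strand), which encodes chromogranin B, gave 590.2, 619.9 and 626 CPM in βTC3 and 6073, 5856 and 5914 CPM in AJ. Here the order of the lines was turned round, with −3.30, SE 0.066, adjusted p = 4.38e-08 for βTC3 minus AJ, against 2.54, SE 0.17, adjusted p = 6.57e-06 for Chga. Per kilobase of exon, Chga stood at 4.0 ± 0.816 times Chgb in βTC3 and at 0.0696 ± 0.00645 times in AJ (mean ± SD, n = 3), a ratio of levels in the same libraries.

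Scg2 (ENSMUSG00000050711, GRCm38 chromosome 1, 79434669 to 79440120, minus strand) encodes secretogranin II, the precursor of secretoneurin. It measured 3017, 3190.5 and 3627 CPM in βTC3 and 1184, 1204 and 1245 CPM in AJ at 0 h (1.42, SE 0.076, adjusted p = 2.52e-06). The lines did not overlap. Scg3 (ENSMUSG00000032181, GRCm38 chromosome 9, 75643189 to 75684056, minus strand), which encodes secretogranin III, a granin that binds cholesterol-rich granule membrane and chromogranin A, measured 554, 571 and 633 CPM in βTC3 and 703, 697 and 738 CPM in AJ (−0.30, SE 0.066, adjusted p = 0.004), a small difference by comparison. Scg5 (ENSMUSG00000023236, GRCm38 chromosome 2, 113776362 to 113829121, minus strand) encodes 7B2, the chaperone that convertase 2 needs to mature, and stood at 293, 314 and 319 CPM and 335, 337 and 327 CPM. It was the only member not called in batch 1 (−0.13, SE 0.058, adjusted p = 0.0763), and it passed with a replicate block shared by both lines (−0.13, adjusted p = 0.0376). The share of all genes called with that block is not given, and without it 72.1% were called.

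Pcsk1 (ENSMUSG00000021587, GRCm38 chromosome 13, 75089826 to 75134861, plus strand) encodes convertase 1/3 and measured 472, 438 and 554 CPM in βTC3 and 114, 112 and 128 CPM in AJ (2.03, SE 0.097, adjusted p = 1.44e-06). Pcsk2 (ENSMUSG00000027419, GRCm38 chromosome 2, 143546156 to 143816285, plus strand), which encodes convertase 2, measured 2305, 2363 and 2145 CPM and 524, 534 and 499 CPM (2.11, SE 0.076, adjusted p = 3.98e-07). Both convertase genes were higher in every βTC3 library than in every AJ library. Per kilobase, Scg5 stood at 0.687 ± 0.0568 times Pcsk2 in βTC3 and 3.24 ± 0.0617 times in AJ, and Pcsk1 at 0.305 ± 0.0535 and 0.321 ± 0.0345 times Pcsk2.

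Cpe (ENSMUSG00000037852, GRCm38 chromosome 8, 64592542 to 64693054, minus strand), which encodes carboxypeptidase E, was abundant in both lines, at 2143, 2122 and 2241 CPM in βTC3 and 1496, 1486 and 1502 CPM in AJ (0.52, SE 0.056, adjusted p = 0.000105). Ptprn (ENSMUSG00000026204, GRCm38 chromosome 1, 75247027 to 75264502, minus strand) measured 745, 728 and 436 CPM in βTC3 and 306, 307 and 241 CPM in AJ (1.15, SE 0.22, adjusted p = 0.00212). Its paralog Ptprn2 (ENSMUSG00000056553, GRCm38 chromosome 12, 116485720 to 117276849, plus strand) measured 542, 534 and 523 CPM and 662, 664 and 644 CPM (−0.32, SE 0.06, adjusted p = 0.00183), so that the pair differed in direction. Per kilobase, Ptprn stood at 2.41 ± 0.625 times Ptprn2 in βTC3 and 0.876 ± 0.103 times in AJ.

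**Figure D2:**
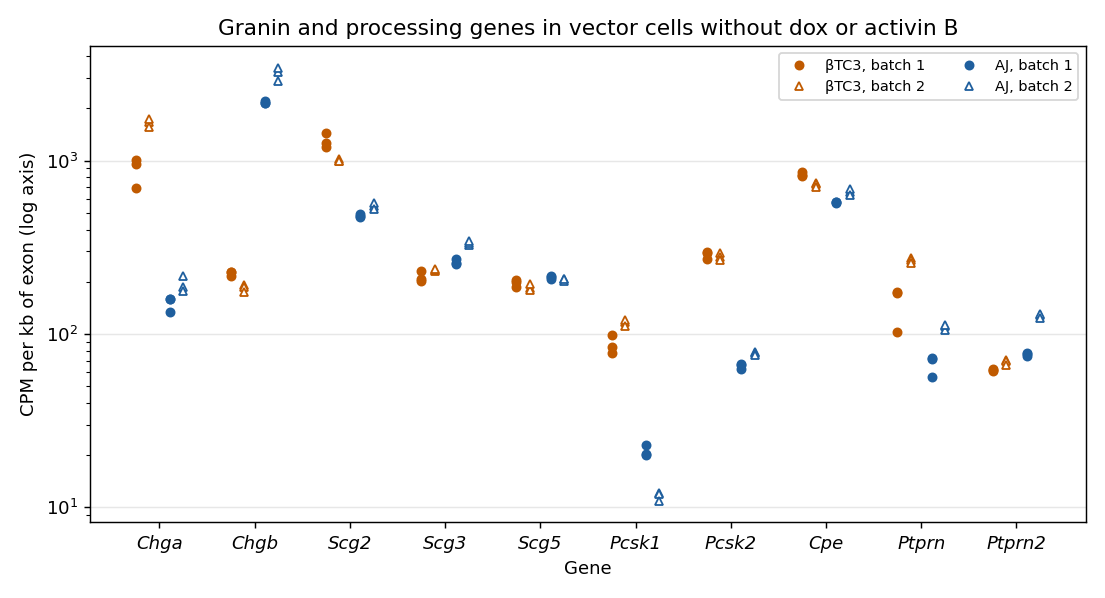
Level of each member per kilobase of exon (CPM per kb, log axis) in vector cells without dox or ligand, 1 point per library; orange is βTC3 and blue AJ, filled circles are batch 1 and open triangles batch 2. Chga and Chgb take opposite orders in the lines, at 891 ± 169 and 223 ± 7.06 CPM per kb in βTC3 and 151 ± 14.4 and 2171 ± 41.1 in AJ (mean ± SD, batch 1).

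Batch 2 vector cells kept this pattern with some values further apart. Pcsk1 stood at 659, 676 and 626 CPM in βTC3 and 67.5, 66.7 and 61.2 CPM in AJ (3.33, SE 0.06, adjusted p = 1.88e-09). Chga stood at 4608, 4324 and 4757 CPM and 512, 491 and 595 CPM (3.10, SE 0.08, adjusted p = 9.6e-09), and Chgb at 525, 513 and 475 CPM and 8879, 9422 and 7894 CPM (−4.11, SE 0.083, adjusted p = 2.71e-09). In all 3 genes the lines did not overlap. Pcsk2 (1.85), Ptprn (1.27) and Scg2 (0.88) were higher in βTC3 on the log2 scale, and Ptprn2 (−0.89) and Scg3 (−0.52) lower. The small differences of Cpe (0.14, SE 0.048, adjusted p = 0.0248) and Scg5 (−0.14, SE 0.047, adjusted p = 0.0203) each lost the call when single libraries were left out (Cpe without βTC3 replicate 1 or AJ replicate 1 or 3, adjusted p = 0.0591 to 0.0818; Scg5 without βTC3 replicate 1 or 2 or AJ replicate 1, adjusted p = 0.0552 to 0.0618). Groups of batch 1 and batch 2 of 1 line were not tested against each other.

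Ordered by mean over the 16 groups, 6 members split by line, with all 9 AJ groups on one side of all 7 βTC3 groups: Chga, Scg2, Pcsk1, Pcsk2 and Ptprn with AJ below, and Chgb with AJ above. The share of all genes that split this way is not given. Between untreated vector cells of the lines, 72.1% of all genes were called in batch 1 and 76.1% in batch 2. For Ptprn and Scg2 the split holds for means only. Ptprn ran from 489 to 525 CPM in AJ vector cells with activin B and from 436 to 745 in βTC3 batch 1 at 0 h. Scg2 ran from 1319 to 1440 CPM in untreated AJ batch 2 and from 1363 to 1446 in βTC3 with activin B. For Chga, AJ libraries ran from 311 to 1090.3 CPM and βTC3 libraries from 1925 to 7581 CPM, with the largest step between neighbours 2.58-fold. Chgb had the lines the other way round, 465 to 653 CPM in βTC3 and 4011 to 10549 CPM in AJ, with a step of 6.71-fold. Pcsk2 (3.05-fold) and Ptprn (1.27-fold) had their widest step between AJ below and βTC3 above. The widest step fell elsewhere in the rest, such as AJ vector cells with activin B alone at the bottom for Pcsk1 (2.15-fold), and AJ ALK7-CA cells at 24 h alone at the bottom for Ptprn2 (1.46-fold). Scg5 varied least, 1.48-fold between its lowest and highest group, and 14 of its 15 neighbouring pairs of groups overlapped. From lowest to highest group the means spanned 21.6-fold for Pcsk1, 21.4-fold for Chgb and 18.2-fold for Chga, 6.98 for Scg2, 5.34 for Pcsk2, 4.37 for Ptprn, 3.43 for Ptprn2, 2.35 for Cpe and 2.21 for Scg3. Neighbouring groups overlapped in 10 of 15 pairs for Chga, 6 for Chgb, 6 for Scg2, 9 for Scg3, 7 for Pcsk1, 11 for Pcsk2, 9 for Cpe, 11 for Ptprn and 8 for Ptprn2.

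In βTC3 cells, 24 h of ALK7-CA went with more Scg3 and with less Scg2, Cpe, Pcsk1, Chgb and Ptprn2 than in vector cells given dox for the same time. Of the 10 members 1 rose and 5 fell, where 8.02% of the 15801 genes tested rose and 5.48% fell (13.5% in all). The median log2 change was −0.18 over the members and −0.01 over all genes. Fewer cells of a kind and less RNA per cell cannot be told apart in these bulk samples.

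Scg3 measured 505, 505 and 523 CPM in vector cells and 769, 791 and 842 CPM in ALK7-CA cells. Each ALK7-CA library lay above each vector library, and Scg3 rose 1.58-fold (log2 change 0.66, SE 0.055, adjusted p = 1.89e-06). Scg2 measured 2327, 2311 and 2349 CPM in vector cells against 1599.9, 1651 and 1806 CPM. It fell 1.37-fold without overlap (log2 change −0.45, SE 0.066, adjusted p = 0.000342). Chgb went from 623, 609 and 623 CPM to 509, 535 and 546 CPM (log2 change −0.21, SE 0.044, adjusted p = 0.00525), a small fall with the groups apart. Chga measured 3284, 3431 and 2799 CPM in vector cells and 4461, 4836 and 3695 CPM with ALK7-CA, and replicate 3 was lowest in both groups. Its difference did not pass (log2 change 0.46, SE 0.16, adjusted p = 0.0856), but passed with replicate numbers as a block (0.46, adjusted p = 1.27e-05), with DESeq2 (adjusted p = 0.0422) and without replicate 3 of every group (0.49, adjusted p = 0.000115). These fits called 27.9%, 12.1% and 18.7% of all genes.

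Among the processing enzymes, Cpe fell from 2211, 2205 and 2361 CPM to 1676, 1646 and 1775 CPM (log2 change −0.40, SE 0.045, adjusted p = 3.29e-05) without overlap. Pcsk1 went from 448, 422 and 488 CPM to 345, 338 and 393 CPM (log2 change −0.32, SE 0.085, adjusted p = 0.0213). Its groups were apart, but the call was lost without vector replicate 3 or without ALK7-CA replicate 1 or 2 (adjusted p = 0.0653 to 0.0722). The partner enzyme gene Pcsk2 (0.01, SE 0.065, adjusted p = 0.959) and its chaperone gene Scg5 (0.10, SE 0.049, adjusted p = 0.26) did not pass. Of the granule membrane genes, Ptprn2 measured 528, 525 and 519.6 CPM against 461, 477 and 466 CPM and fell by a little (log2 change −0.15, SE 0.042, adjusted p = 0.0297), a call lost without a low-count filter (adjusted p = 0.128), with only the groups compared (adjusted p = 0.0782) and without any 1 of the vector libraries or ALK7-CA replicate 1 or 3 (adjusted p = 0.0611 to 0.0982). Ptprn did not pass (−0.33, SE 0.21, adjusted p = 0.41) except with the block (−0.34, adjusted p = 0.01) and without replicate 3 of every group (−0.30, adjusted p = 0.00678). Beside these changes, the summed level of 5 duct markers was 33.5 to 37.1 CPM with ALK7-CA and 12.2 to 12.9 CPM in vector cells. It came from Krt7 (32.8 against 8.94 CPM), while Krt19 and Sox9 were at or near 0, and its part in the result was not tested.

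At 2 h of dox, no member passed in βTC3 ALK7-CA cells (edgeR; 0 at an unadjusted p under 0.05 and 0 with DESeq2), where 1.53% of all genes did (1.25% up, 0.272% down). With the replicate number as a block, Scg3 (0.11, adjusted p = 0.0421) and Pcsk1 (0.13, adjusted p = 0.0298) passed, where it called 7.19% of all genes. The change of the ALK7-CA effect from 2 to 24 h passed for 5 members, where 5.85% of all genes did (3.68% up, 2.17% down). It was upward for Scg3 (0.55, SE 0.078, adjusted p = 0.000634) and downward for Scg2 (−0.48, SE 0.094, adjusted p = 0.00767), Pcsk1 (−0.45, SE 0.12, adjusted p = 0.0445), Cpe (−0.38, SE 0.064, adjusted p = 0.00237) and Chgb (−0.27, SE 0.062, adjusted p = 0.0207). The call of Pcsk1 was lost in 9 of the 12 fits that left out 1 library (adjusted p = 0.0652 to 0.129) and held only without vector 2 h replicate 3, vector 24 h replicate 2 or ALK7-CA 24 h replicate 3. That of Chgb was lost without replicate 1 of any of the 4 groups (adjusted p = 0.0538 to 0.0606). Without replicate 3 of every group, Chga (0.37, adjusted p = 0.0109) and Ptprn (−0.52, adjusted p = 0.00437) passed as well and Chgb no longer did (adjusted p = 0.0523), where 8.79% of all genes passed. With the block 8 members passed, adding Chga (0.31, adjusted p = 0.0082), Ptprn (−0.55, adjusted p = 0.00771) and Ptprn2 (−0.22, adjusted p = 0.00416), where 16.2% of all genes passed.

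Dox-treated vector cells also differed from untreated ones in βTC3. At 24 h of dox against 0 h, 3 members fell and none rose, where 23.3% of all genes passed (10.6% up, 12.7% down). Scg2 went from 3017, 3190.5 and 3627 CPM to 2327, 2311 and 2349 CPM (log2 change −0.48, SE 0.066, adjusted p = 0.000257). Scg5 went from 293, 314 and 319 CPM to 252, 263 and 245 CPM (log2 change −0.27, SE 0.049, adjusted p = 0.00147), and Scg3 from 554, 571 and 633 CPM to 505, 505 and 523 CPM (log2 change −0.18, SE 0.055, adjusted p = 0.0294). In each of the 3 genes, all libraries at 24 h lay below all at 0 h, but the call of Scg3 was lost without replicate 1 or 2 at 24 h or replicate 2 or 3 at 0 h (adjusted p = 0.0658 to 0.191). The fall of Scg2 with ALK7-CA is thus measured from vector cells in which it was already lower than at 0 h, and the rise of Scg3 from the lowest Scg3 level of any group. With the block, 7 members passed, adding Chga (0.40, adjusted p = 3.79e-05), Ptprn (0.59, adjusted p = 0.000142), Pcsk1 (−0.09, adjusted p = 0.0327) and Cpe (0.07, adjusted p = 0.0443), and without replicate 3 of every group Chga (0.30) and Ptprn (0.41) were added. The block called 45.3% of all genes there and the fit without replicate 3 30.8%. At 2 h of dox no member passed in either line (edgeR; 0 unadjusted and 0 with DESeq2 in both), where 0.00633% of all genes passed in βTC3 and 0.0% in AJ. In AJ, 24 h of dox gave 0 members past the threshold with edgeR (1 unadjusted, 1 with DESeq2) where 2.71% of all genes passed (1.43% up, 1.27% down; 5.44% with DESeq2). The block called Chga (0.37, adjusted p = 0.0388) and Chgb (0.18, adjusted p = 0.0357), and without replicate 3 of every group Chga (0.43, adjusted p = 0.0334) and Ptprn (0.25, adjusted p = 0.0145) passed, where these fits called 10.4% and 15.4% of all genes.

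**Figure D3:**
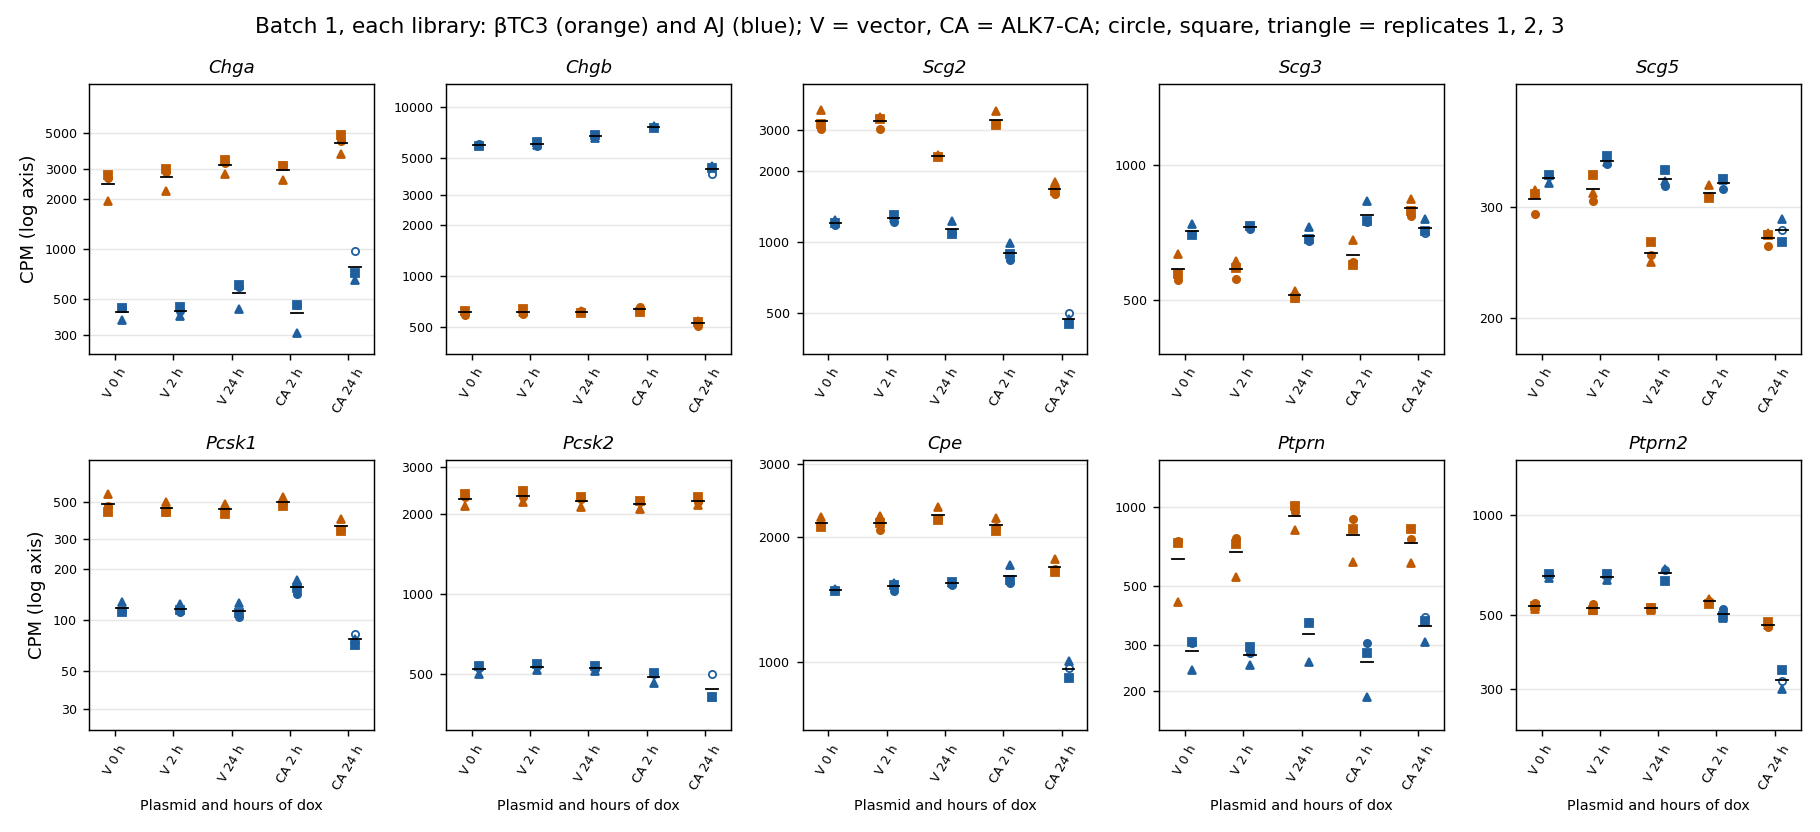
CPM (log axis) of the 10 members in the 30 libraries of batch 1, for vector (V) and ALK7-CA (CA) cells by hours of dox; circles, squares and triangles are replicates 1, 2 and 3, black lines are group means, and the open circle is AJ ALK7-CA 24 h replicate 1. Scg2 and Ptprn2 in AJ ALK7-CA cells at 24 h lie below every other AJ group, at 449 to 501 and 301 to 342 CPM.

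In AJ cells with 24 h of ALK7-CA, Scg2, Ptprn2, Cpe, Chgb, Pcsk1, Scg5 and Pcsk2 fell and Chga rose. The 7 falls and 1 rise stand against 19.9% of 15487 genes falling and 20.8% rising (40.7% in all). Without replicate 1 the count was 7 falls and 0 rises, where 37.0% of genes passed. The median log2 change was −0.41 over the members (−0.48 without replicate 1) and −0.01 over all genes. Together the members made up 1.26% of scaled reads in vector cells and 0.87% with ALK7-CA.

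Scg2 measured 1093, 1089 and 1234 CPM in vector cells and 501, 449 and 474 CPM with ALK7-CA. It fell 2.40-fold (log2 change −1.26, SE 0.068, adjusted p = 7.02e-09; without replicate 1 −1.30, adjusted p = 6.62e-08), the largest fall among the members. Chgb, the main granin of this line, went from 6796, 6831 and 6589 CPM to 4011, 4372 and 4494 CPM (log2 change −0.65, SE 0.049, adjusted p = 1.73e-07; without replicate 1 −0.60, adjusted p = 7.35e-07). In both genes every ALK7-CA library lay below every vector library. Chga went the other way, from 587, 599.9 and 436 CPM to 973, 718 and 647 CPM (log2 change 0.53, SE 0.18, adjusted p = 0.0294). Replicate 1 was the highest of the 6 libraries. Without it Chga did not pass (0.33, adjusted p = 0.15), nor without vector replicate 3 (0.39, adjusted p = 0.102) or with only the groups compared (adjusted p = 0.0603). Scg3 did not pass (0.06, SE 0.052, adjusted p = 0.404).

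Of the processing genes, Cpe went from 1538, 1562 and 1555 CPM to 968, 913 and 1006 CPM (log2 change −0.69, SE 0.048, adjusted p = 8.68e-08; without replicate 1 −0.69, adjusted p = 1.08e-06). Pcsk1 went from 104, 109 and 126 CPM to 83.0, 71.6 and 76.9 CPM (log2 change −0.55, SE 0.089, adjusted p = 0.000203; without replicate 1 −0.61, adjusted p = 0.00037). Neither overlapped. Pcsk2 went from 521, 536 and 513 CPM to 497, 409 and 408 CPM (log2 change −0.26, SE 0.071, adjusted p = 0.0105). Replicate 1 was its highest ALK7-CA library, and without it the fall was larger (−0.36, adjusted p = 0.000274). The call was lost without ALK7-CA replicate 2 (adjusted p = 0.0534) and with only the groups compared (adjusted p = 0.077). Scg5, the convertase 2 chaperone gene, fell by about as much (log2 change −0.27, SE 0.043, adjusted p = 0.000204; without replicate 1 −0.27, adjusted p = 0.0011). Among the granule membrane genes, Ptprn2 fell 2.08-fold, from 681, 632 and 688 CPM to 317, 342 and 301 CPM (log2 change −1.06, SE 0.054, adjusted p = 3.97e-09; without replicate 1 −1.05, adjusted p = 8.62e-08), and Ptprn did not pass (0.10, SE 0.18, adjusted p = 0.702). Per kilobase, Ptprn thus stood at 2.23 ± 0.19 times Ptprn2 with ALK7-CA and 1.01 ± 0.214 times in vector cells. The excess of replicate 1 over the mean of the other ALK7-CA libraries was 290.4 CPM for Chga and 88.1 CPM for Pcsk2, where 4.92% of the βTC3 level comes to 121 and 112 CPM. The excess of Chga thus lay above that share and that of Pcsk2 below it. That mean includes replicate 3, in which both genes were lowest in every batch 1 group. For Scg2, Cpe and Pcsk1 the excess lay below the share, at 39.4 against 161, 8.74 against 107 and 8.76 against 24.0 CPM. For Chgb replicate 1 was the lowest of the 3.

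After 2 h of dox, 4 members already differed in AJ ALK7-CA cells, 2 upward and 2 downward, where 8.24% of all genes rose and 7.54% fell (15.8% in all). Pcsk1 rose, from 111, 115 and 124 CPM in vector cells to 142, 155 and 173 CPM (log2 change 0.42, SE 0.088, adjusted p = 0.00504). Chgb rose from 5869, 6163 and 5959 CPM to 7632, 7451 and 7711 CPM (log2 change 0.33, SE 0.049, adjusted p = 0.000363). Both are genes that fell at 24 h, and at 2 h their groups did not overlap. Scg2 fell from 1223, 1305 and 1269 CPM to 837, 889 and 989 CPM (log2 change −0.49, SE 0.067, adjusted p = 0.000201), and Ptprn2 from 649.6, 662 and 638 CPM to 523, 496 and 491 CPM (log2 change −0.38, SE 0.053, adjusted p = 0.000269). These, again with no overlap, fell at both times. Scg5 did not pass (−0.13, SE 0.043, adjusted p = 0.0672) but did with the block (adjusted p = 0.0362), which called 25.2% of all genes. It also passed without replicate 3 of every group (−0.15, adjusted p = 0.0272), a fit whose share of all genes called is not given. DESeq2 called 5 members, where it called 2567 of 16016 genes. The change of the ALK7-CA effect from 2 to 24 h was downward for Chgb (−0.98, SE 0.069, adjusted p = 3.97e-07), Pcsk1 (−0.97, SE 0.12, adjusted p = 8.46e-05), Scg2 (−0.77, SE 0.095, adjusted p = 6.06e-05), Cpe (−0.76, SE 0.068, adjusted p = 3.39e-06) and Ptprn2 (−0.68, SE 0.075, adjusted p = 2.37e-05), where 10.2% of all genes had a downward change and 10.8% an upward one (21.0% in all). Chga passed in it without replicate 3 of every group (0.47, adjusted p = 0.0422), where 37.2% of all genes did. Beside these values the duct markers summed to 32.0 to 41.7 CPM with ALK7-CA at 2 h and 15.2 to 19.1 CPM in vector cells, from Cftr (14.7 against 0.346 CPM), with Krt19 and Sox9 at or near 0. At 24 h, with replicate 1 included, they summed to 11.7 to 12.3 and 13.2 to 16.6 CPM, but single genes moved apart. Of the 3 tested, 2 rose and 1 fell (median log2 change 2.55, highest 3.24). Cftr stood at 3.20 against 0.336 CPM, Krt7 at 1.94 against 0.324 and Spp1 at 6.39 against 13.9. Their part in the result was not tested.

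Activin B, a natural ligand of ALK7, was given for 24 h to βTC3 vector cells without dox. Scg3 and Chga rose, and Scg2, Cpe, Pcsk1 and Ptprn fell, 2 up and 4 down where 12.3% of 14429 genes rose and 9.97% fell (22.2% in all). The median log2 change was −0.10 over the members and 0.00 over all genes.

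Chga measured 4608, 4324 and 4757 CPM without and 7511, 7227 and 7581 CPM with activin B (log2 change 0.72, SE 0.047, adjusted p = 3.05e-05). Scg3 measured 630.5, 643 and 650.4 CPM and 1089.8, 1130.1 and 1173 CPM, a 1.78-fold rise (log2 change 0.83, SE 0.042, adjusted p = 8.31e-06). The treated libraries lay above the untreated ones in both genes. Scg2 fell 1.78-fold, from 2513, 2584 and 2512 CPM to 1446, 1363 and 1443 CPM (log2 change −0.83, SE 0.038, adjusted p = 5.2e-06). Chgb did not pass (−0.08, SE 0.045, adjusted p = 0.282), so that per kilobase Chga stood at 15.6 ± 0.872 times Chgb with activin B and 9.02 ± 0.832 times without. Cpe fell from 1943, 1913 and 1826 CPM to 1086, 1157 and 1081 CPM (log2 change −0.76, SE 0.04, adjusted p = 9.88e-06), and Pcsk1 from 659, 676 and 626 CPM to 412, 413 and 387 CPM (log2 change −0.68, SE 0.042, adjusted p = 2.19e-05). Every treated library was below every untreated one in Scg2, Cpe and Pcsk1. Ptprn fell likewise, from 1159.9, 1127 and 1083 CPM to 796, 762 and 735 CPM (log2 change −0.54, SE 0.042, adjusted p = 7.13e-05). Pcsk2 (0.09, SE 0.042, adjusted p = 0.178) and Ptprn2 (−0.13, SE 0.039, adjusted p = 0.055) did not pass, nor did Scg5 (0.01, SE 0.046, adjusted p = 0.877). With the block, Pcsk2 and Ptprn2 passed (adjusted p = 0.0161 and 0.0215), where 29.7% of all genes were called. DESeq2 called 7 members in this comparison, where it called 2739 of 15397 genes. Leaving out single libraries gave 6 to 7 members, in fits whose share of all genes called is not given. Pcsk1 stood at 0.417 ± 0.016 times Pcsk2 per kilobase before and 0.244 ± 0.000521 times after treatment. The duct markers summed to 30.3 to 33.8 CPM with activin B and 11.3 to 11.9 CPM without, from Krt7 (29.96 against 8.76 CPM), with Krt19 at 0 and Sox9 near 0, and the beta cell markers to 25158 to 26204 and 31465 to 33316 CPM. Their part in the result was not tested.

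The βTC3 effects of ALK7-CA at 24 h and of activin B were measured in different batches, with dox in the first alone. Their difference passed for 2 members, where 1.36% of all genes did (1.08% up, 0.275% down): Scg2 (0.37, SE 0.065, adjusted p = 0.0152) and Cpe (0.36, SE 0.064, adjusted p = 0.0168) fell by less with ALK7-CA. For Scg3 the difference was −0.17 (95% interval −0.30 to −0.05), for Chga −0.26 (−0.52 to 0.01) and for Pcsk1 0.36 (0.17 to 0.54), and these did not pass. With the block 6 members passed, adding Chga (−0.26, adjusted p = 0.00303), Scg3 (−0.17, adjusted p = 0.0218), Pcsk1 (0.36, adjusted p = 0.00127) and Ptprn (0.20, adjusted p = 0.0235), where 5.32% of all genes passed. The count was 0 without vector 24 h replicate 1, and 1 without vector 24 h replicate 2 or without activin B replicate 3. For these fits the share of all genes called is not given.

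In AJ vector cells, activin B lowered Pcsk1 to the lowest level of the study and raised Chga. Chga, Chgb and Scg3 rose and Pcsk1, Cpe, Scg2, Ptprn2 and Pcsk2 fell, 3 up and 5 down where 11.6% of 14872 genes rose and 10.9% fell (22.5% in all). The median log2 change was −0.12 over the members and −0.00 over all genes.

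Pcsk1 measured 67.5, 66.7 and 61.2 CPM without and 29.8, 31.1 and 29.9 CPM with the ligand, and fell 2.15-fold (log2 change −1.11, SE 0.048, adjusted p = 2e-08). Chga measured 512, 491 and 595 CPM and 874, 892 and 1090.3 CPM, a 1.79-fold rise (log2 change 0.84, SE 0.095, adjusted p = 5.45e-05). Neither gene overlapped between groups. Chgb measured 8879, 9422 and 7894 CPM and 10312, 10549 and 9629 CPM (log2 change 0.22, SE 0.063, adjusted p = 0.0279), a call lost without untreated replicate 1 or 3 or treated replicate 1 or 2 (adjusted p = 0.0502 to 0.0831) and with only the groups compared (adjusted p = 0.0655). Scg3 rose by a little (log2 change 0.16, SE 0.034, adjusted p = 0.00449). Smaller falls were seen in Cpe, from 1716, 1777 and 1648 CPM to 1341, 1350.1 and 1276 CPM (log2 change −0.38, SE 0.04, adjusted p = 3.52e-05), and in Scg2, from 1373, 1440.0 and 1319 CPM to 1157, 1139.7 and 1089 CPM (log2 change −0.29, SE 0.044, adjusted p = 0.000488). Both had every treated library below every untreated one. Ptprn2 (log2 change −0.26, SE 0.032, adjusted p = 0.000127) and Pcsk2 (log2 change −0.24, SE 0.029, adjusted p = 8.8e-05) fell by about as much as Scg2, while Scg5 (−0.00, SE 0.038, adjusted p = 0.958) and Ptprn (0.11, SE 0.046, adjusted p = 0.117) did not pass. Per kilobase, Pcsk1 stood at 0.15 ± 0.00531 times Pcsk2 without and 0.0824 ± 0.00142 times with activin B. The duct markers summed to 3.15 to 3.60 CPM with and 1.92 to 2.09 CPM without the ligand, and their part in the result was not tested.

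AJ cells with wild-type ALK7 were also given activin B. Chga, Ptprn and Chgb rose and Pcsk1, Cpe, Ptprn2, Pcsk2 and Scg2 fell, 3 up and 5 down where 16.5% of genes rose and 16.3% fell (32.8% in all). Pcsk1 went from 185, 179 and 175 CPM to 78.3, 74.4 and 74.4 CPM (log2 change −1.24, SE 0.046, adjusted p = 3.52e-09). Chga went from 449.6, 486 and 510.4 CPM to 748, 672 and 802 CPM (log2 change 0.62, SE 0.095, adjusted p = 0.000319), and Cpe from 1463, 1486 and 1389.8 CPM to 962, 979 and 956 CPM (log2 change −0.58, SE 0.041, adjusted p = 6.1e-07). In these 3 genes the groups were apart. Ptprn2 fell from 877, 844 and 838 CPM to 578, 575 and 577 CPM (log2 change −0.56, SE 0.033, adjusted p = 1.17e-07) while its paralog Ptprn rose from 318, 334 and 356 CPM to 443, 417 and 428 CPM (log2 change 0.36, SE 0.047, adjusted p = 9.03e-05). The rest were smaller, Pcsk2 at −0.46 (adjusted p = 2.33e-07), Scg2 at −0.33 (adjusted p = 0.000114) and Chgb at 0.23 (adjusted p = 0.014, lost without replicate 3 of either group, adjusted p = 0.0503 to 0.0587). The effect of the ligand differed between ALK7 and vector cells for 2 members, where 2.56% of all genes differed (1.15% up, 1.41% down): Ptprn2 (−0.30, SE 0.046, adjusted p = 0.00394) and Pcsk2 (−0.22, SE 0.041, adjusted p = 0.0146) fell by more with ALK7. DESeq2 called 4 members in this difference and 3.1% of all genes. For Pcsk1 it was −0.14 (95% interval −0.27 to −0.01) and for Chga −0.21 (−0.47 to 0.05), not passing.

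Without ligand, AJ cells with ALK7 and dox already differed from vector cells in 9 of 10 members, 2 up and 7 down where 14.5% of genes rose and 14.6% fell (29.0% in all). Pcsk1 stood far higher, at 185, 179 and 175 CPM against 67.5, 66.7 and 61.2 CPM (log2 change 1.45, SE 0.046, adjusted p = 2.6e-09). Chgb went from 8879, 9422 and 7894 CPM to 5044, 4949.9 and 4520.0 CPM (log2 change −0.86, SE 0.064, adjusted p = 1.3e-06), and Scg2 from 1373, 1440.0 and 1319 CPM to 799.6, 763 and 736 CPM (log2 change −0.86, SE 0.044, adjusted p = 7.72e-08). None of the 3 overlapped. Ptprn (−0.48, adjusted p = 1.18e-05), Scg5 (−0.43, adjusted p = 5.3e-06) and Ptprn2 (−0.37, adjusted p = 4.92e-06) were lower in every ALK7 library, and Cpe (−0.25, adjusted p = 0.000559) and Scg3 (−0.23, adjusted p = 0.000255) fell by less. Pcsk2 rose (0.21, adjusted p = 0.000252) and Chga did not pass (−0.15, SE 0.095, adjusted p = 0.267). Per kilobase, Scg5 stood at 1.70 ± 0.0552 times Pcsk2 in ALK7 cells and 2.65 ± 0.0669 times in vector cells. Plasmid and dox differ together here and cannot be told apart. The duct markers summed to 9.76 to 11.1 and 1.92 to 2.09 CPM, and their part in the result was not tested.

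**Figure D4:**
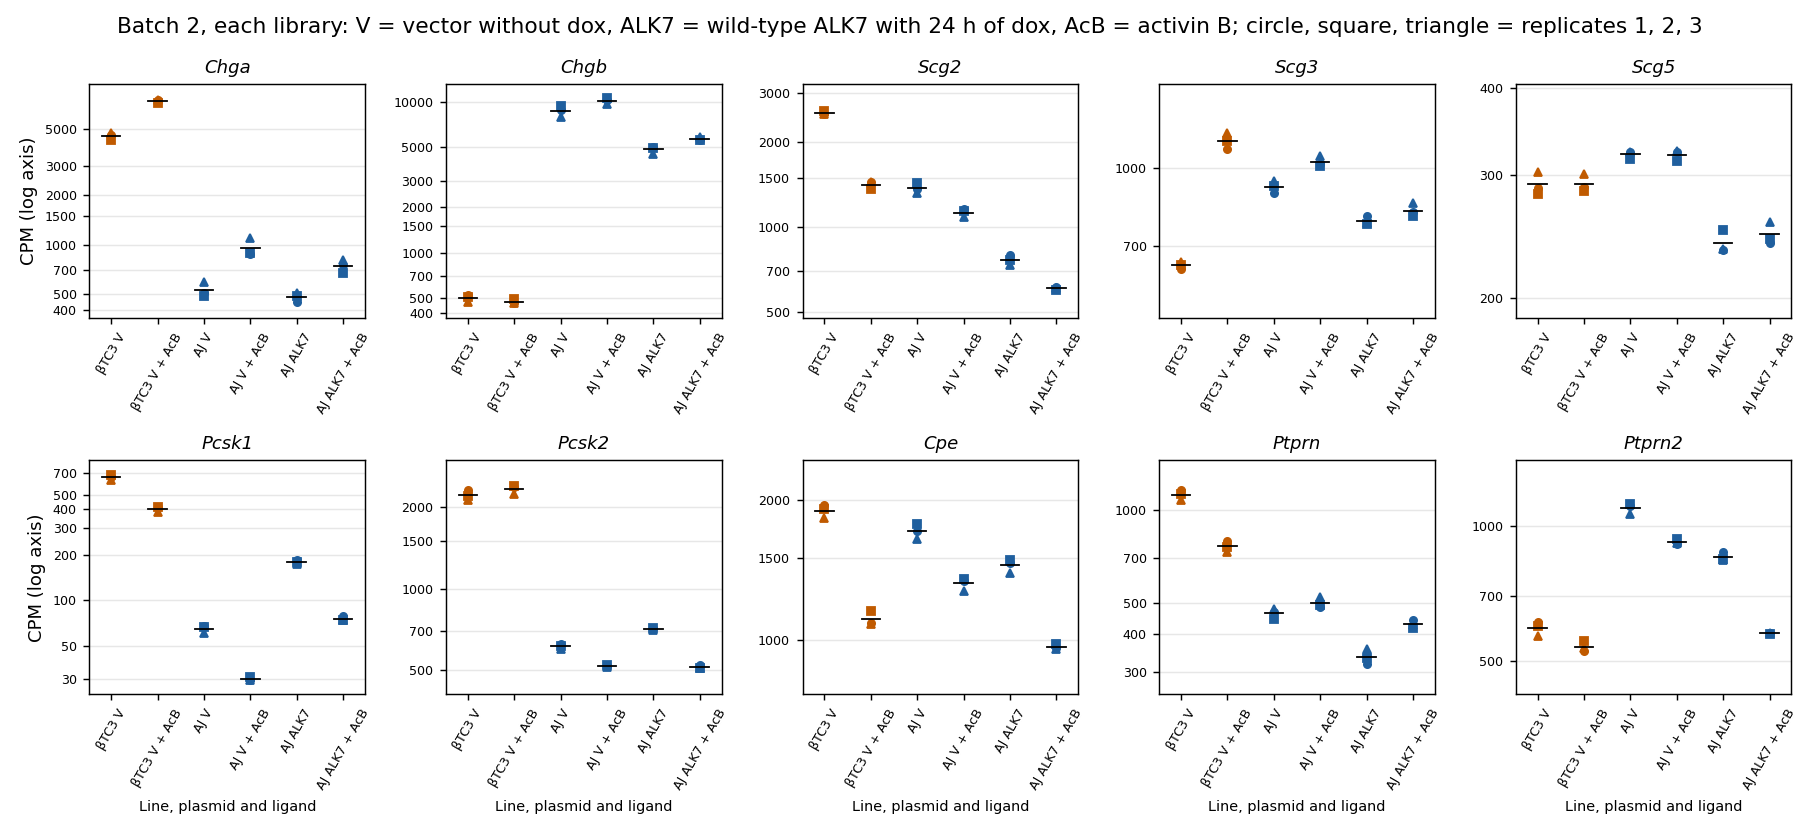
CPM (log axis) of the 10 members in the 18 libraries of batch 2, by line, plasmid and activin B, with symbols for replicates as in the plot of batch 1 libraries and black lines for means. Pcsk1 in AJ runs from 29.8 to 31.1 CPM in vector cells with activin B to 175 to 185 CPM in ALK7 cells without it.

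The AJ effects of ALK7-CA at 24 h and of activin B on vector cells differed for 6 members, where 15.6% of all genes differed (7.27% upward, 8.3% downward). ALK7-CA lowered Scg2 (−0.98, SE 0.086, adjusted p = 1.71e-05), Chgb (−0.88, SE 0.10, adjusted p = 0.000128), Ptprn2 (−0.81, SE 0.078, adjusted p = 3.23e-05), Cpe (−0.32, SE 0.072, adjusted p = 0.0102) and Scg5 (−0.27, SE 0.065, adjusted p = 0.0138) relative to the ligand, and Pcsk1 fell by less with it (0.54, SE 0.11, adjusted p = 0.00443). The calls of Scg5 (without untreated replicate 2, adjusted p = 0.051) and Cpe (without treated replicate 2, adjusted p = 0.0548) each rested on 1 batch 2 library. Batch and dox differ together with the treatment in this comparison. Side by side, the log2 changes with ALK7-CA and with activin B were, for Chga, 0.53 and 0.84, for Cpe −0.69 and −0.38, and for Pcsk1 −0.55 and −1.11.

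Between the lines, the response to 24 h of ALK7-CA differed for 6 members, each more positive or less negative in βTC3, where 17.5% of 16194 genes differed (9.18% upward in βTC3 minus AJ, 8.32% downward). Ptprn2 (0.91, SE 0.079, adjusted p = 1.84e-05) and Scg2 (0.81, SE 0.10, adjusted p = 0.000226) differed most. Scg3 (0.61, SE 0.075, adjusted p = 0.000212) rose in βTC3 and did not pass in AJ. Chgb (0.45, SE 0.076, adjusted p = 0.00192), Scg5 (0.37, SE 0.073, adjusted p = 0.00473) and Cpe (0.29, SE 0.08, adjusted p = 0.0257) followed, the last of which was lost without βTC3 vector replicate 1 or 2, βTC3 ALK7-CA replicate 3 or AJ ALK7-CA replicate 2 (adjusted p = 0.0549 to 0.0733). Without AJ ALK7-CA replicate 1, Pcsk2 passed as well (0.38, adjusted p = 0.00946). Chga (−0.06, SE 0.25, adjusted p = 0.91; 95% interval −0.55 to 0.43) and Pcsk1 (0.24, SE 0.13, adjusted p = 0.257; −0.02 to 0.49) did not pass.

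The response to activin B differed between βTC3 and AJ vector cells for 6 members, 3 in each direction, where 9.12% of genes differed (4.51% upward, 4.61% downward). It was more positive in βTC3 for Scg3 (0.66, SE 0.056, adjusted p = 1.48e-05), Pcsk1 (0.42, SE 0.073, adjusted p = 0.00318) and Pcsk2 (0.32, SE 0.059, adjusted p = 0.00418). Ptprn (−0.66, SE 0.061, adjusted p = 2.9e-05), Scg2 (−0.55, SE 0.069, adjusted p = 0.000349) and Cpe (−0.39, SE 0.068, adjusted p = 0.00298) were more negative in βTC3. Scg2 thus fell more in AJ with ALK7-CA and more in βTC3 with activin B. For Chga the difference was −0.13 (95% interval −0.35 to 0.10) and did not pass.

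**Figure D5:**
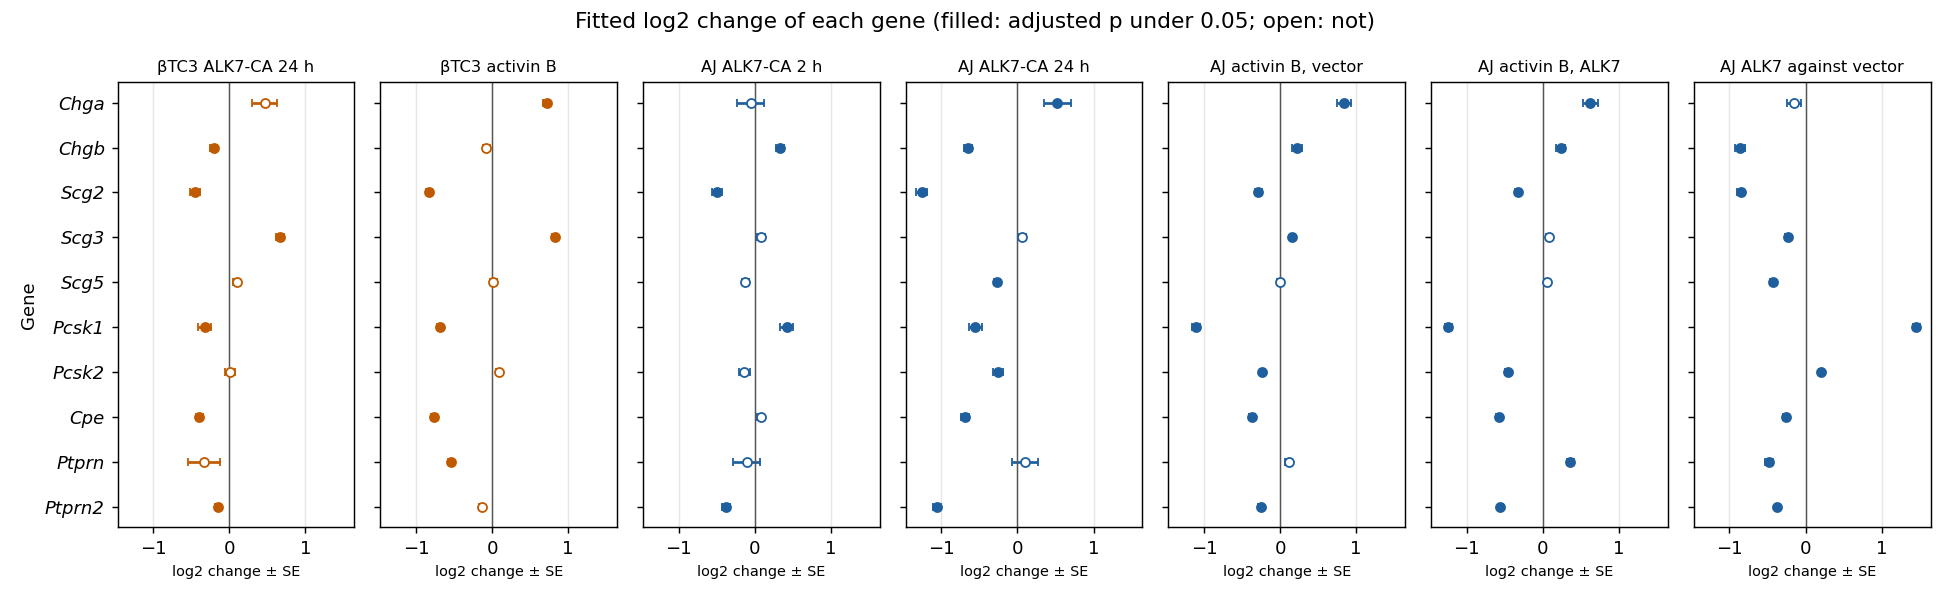
Log2 change with its SE (horizontal axis) of the 10 members in 7 comparisons, with filled points for an adjusted p under 0.05. Cpe and Scg2 lie left of 0 and are filled in the panels of ALK7-CA at 24 h and of activin B, and Pcsk1 is right of 0 in AJ at 2 h of ALK7-CA (0.42) and in AJ ALK7 against vector (1.45).

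A list of 42 other granule and prohormone genes (biogenesis, priming, transport and further enzymes) gives the setting. With 24 h of ALK7-CA, 1 rose and 6 fell of 40 in βTC3, where 8.02% of all genes rose and 5.48% fell. In AJ with all libraries, 7 rose and 12 fell of 39, where 20.8% of all genes rose and 19.9% fell (40.7% in all). Without replicate 1, 6 rose and 12 fell of 39, where 37.0% of all genes were called. In βTC3, Kif1a, the motor that carries dense-core vesicles, rose (log2 change 0.46, adjusted p = 0.00964) and Scgn, the calcium sensor secretagogin, fell (log2 change −0.51, adjusted p = 0.00131), as did Cpd, a relative of Cpe (log2 change −0.30, adjusted p = 0.0321), and Rab27a, a granule docking GTPase (log2 change −0.29, adjusted p = 0.00255). In AJ, the largest rise was of Cpm, a membrane-bound carboxypeptidase, at 28.0 ± 0.407 against 1.88 ± 0.252 CPM (log2 change 3.90, adjusted p = 3.03e-10), and at 2 h it stood at 4.61 ± 0.784 against 2.01 ± 0.359 CPM. Furin, the convertase of the constitutive pathway, rose (log2 change 1.18, adjusted p = 0.000798). Falls were led by Cadps2, a priming factor of dense-core vesicles (log2 change −1.35, adjusted p = 6.16e-08), Scgn (log2 change −1.19, adjusted p = 3.38e-07) and Pick1, a protein of granule budding (log2 change −0.90, adjusted p = 5.19e-05). Without replicate 1 these genes also passed at 24 h. Their log2 changes were then 3.89 for Cpm, 1.14 for Furin, −1.28 for Cadps2, −1.27 for Scgn and −0.92 for Pick1. Slc30a8, the granule zinc transporter, passed with all libraries (log2 change 1.66, adjusted p = 0.0182) but measured 28.8, 4.66 and 5.76 CPM, and did not pass without replicate 1 (0.34, adjusted p = 0.0759).

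With activin B, 5 rose and 9 fell of 40 in βTC3, 12 rose and 3 fell of 40 in AJ vector cells and 10 rose and 7 fell of 40 in AJ ALK7 cells, where 12.3, 11.6 and 16.5% of all genes rose and 9.97, 10.9 and 16.3% fell. In βTC3, Syt7, a calcium sensor of exocytosis (log2 change 0.56, adjusted p = 7.12e-05), Kif1a (log2 change 0.42, adjusted p = 0.000286) and Ctsl (log2 change 0.32, adjusted p = 0.00163) rose. Vgf, a granin-like precursor (log2 change −0.79, adjusted p = 0.0444), and the nucleobindin genes Nucb1 (log2 change −0.46, adjusted p = 7.78e-05) and Nucb2 (log2 change −0.43, adjusted p = 0.000479) fell. In AJ vector cells, Pcsk1n, which encodes proSAAS, an inhibitor of convertase 1/3, passed upward (log2 change 2.31, adjusted p = 0.0395) while Pcsk1 fell, and its spread was wide, at 127 ± 121 against 25.6 ± 20.1 CPM (mean ± SD). Furin rose (log2 change 0.52, adjusted p = 0.000975), and Pick1 (log2 change −0.39, adjusted p = 0.00117) and Syt9 (log2 change −0.38, adjusted p = 8.39e-05) fell. AJ cells with ALK7 against vector gave 5 rises and 13 falls of 40 where 14.5% of all genes rose and 14.6% fell, with Resp18, a granule-lumen protein (log2 change −1.002, adjusted p = 1.84e-07), and Pcsk6 (log2 change −1.12, adjusted p = 0.000495) lower and Kif1a (log2 change 0.43, adjusted p = 1.27e-05) and Rest, a repressor of neuronal and endocrine secretory genes (log2 change 0.45, adjusted p = 0.0109), higher. Between the lines the list had 16 genes higher and 11 lower in βTC3 of 40 in batch 1, and 21 and 14 of 40 in batch 2, where 36.5 and 35.6% of all genes were higher and lower in batch 1 and 37.6 and 38.5% in batch 2. The widest difference in batch 1 was in Sytl4, the Rab27 effector granuphilin, at 503 ± 67.8 against 0.261 ± 0.0623 CPM, with Slc30a8 also higher in βTC3.

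The cargo that these enzymes cut was listed as well, and the genes named from it were chosen after their values were seen. Prohormone and neuropeptide genes gave 2 rises and 6 falls of 15 with 24 h of ALK7-CA in βTC3 and 2 rises and 9 falls of 13 with activin B, where 8.02 and 12.3% of all genes rose and 5.48 and 9.97% fell. In βTC3 with the ligand, Ins2 went to 13536 ± 576 against 19046 ± 867 CPM (log2 change −0.48, adjusted p = 0.000145), Npy to 887 ± 30.2 against 1755 ± 74.7 CPM (log2 change −0.97, adjusted p = 5.52e-06) and Gcg to 32.5 ± 4.74 against 115 ± 5.06 CPM (log2 change −1.81, adjusted p = 9.26e-06), each a fall, beside the falls of Pcsk1 and Cpe. Iapp did not pass (log2 change 0.01, adjusted p = 0.874). In AJ with ALK7-CA at 24 h the list gave 7 rises and 7 falls of 17, where 20.8% of all genes rose and 19.9% fell. Without replicate 1 it gave 3 rises and 8 falls of 17, where 37.0% of all genes were called. Sst, the somatostatin gene, went to 500.2 ± 66.6 against 2351 ± 764 CPM (log2 change −2.23, adjusted p = 1.94e-05) and Tac1 to 13.1 ± 1.35 against 73.2 ± 5.21 CPM (log2 change −2.48, adjusted p = 2.52e-10), both falls, while Ppy rose to 14.5 ± 1.34 against 0.247 ± 0.123 CPM (log2 change 5.84, adjusted p = 1.81e-08). Without replicate 1, Sst (log2 change −2.29), Tac1 (−2.43) and Ppy (5.80) also passed. The passing values of Ins1 and Ins2 in this group rest on replicate 1, without which neither passed (adjusted p = 0.95 and 0.613).

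Which other genes varied most like a member was described over the 16 group means of log2(CPM + 1), centred by line and batch, among 10347 genes with a mean of at least 10 CPM. The points share batches, controls and scaling, so the values carry no p. Pearson's r was 0.983 for Ptprn2 with Camk2b and 0.978 with Gimap6, and 0.981 for Scg2 with Tent5a and 0.951 with Cpq. Chga was most like Ndst4 (0.964) and Tmem86a (0.945), and Cpe most like Aass (0.964) and Rpn2 (0.962). The nearest genes were Rbm43 for Scg5 (0.956), Tbc1d2b for Scg3 (0.937), Prpf19 for Pcsk2 (0.923), Serhl for Chgb (0.912) and Maged2 for Ptprn (0.909).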

How the data were processed

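PolyA RNA of 48 libraries (16 groups of 3) was sequenced after Trizol extraction, with a stranded mRNA kit and 500 ng of input per the labels' protocols. The tools and build named in the submitters' processing notes are edgeR, featureCounts 1.4.4, HISAT2, cutadapt 1.4.2, bcl2fastq 2.17 and mm10. How strand was set and which annotation was counted is not given in the sources used here. Values deposited by the authors are raw counts, whole reads per Ensembl gene, for 39017 identifiers, and the series' count table was equal to the per-sample tables in 48 of 48 columns. A deposited table of normalized values (48 columns) was not used. GENCODE M21 (GRCm38) gave symbols for 37693 identifiers, and their positions and exon lengths. Promoters are RefSeq's, found for 9 of 10 members.

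Counts were fitted in R 4.3.3 with edgeR 4.0.16: filterByExpr (minimum count 10, minimum total 15, minimum proportion 0.7), TMM scaling, the quasi-likelihood F test and Benjamini-Hochberg adjustment over all tested genes at 0.05. Each line and batch had 1 fit of all its libraries, and each comparison across lines or batches a fit of its own groups. Of 21 comparisons, 14 were between groups and 7 were differences of effects. CPM use 1 TMM scaling of all 48 libraries, folds come from the fits, and intervals are 95%. Alternatives were DESeq2 1.42.0, RLE scaling, no filter, a stricter filter (1 CPM in 3 libraries), only the groups compared, the replicate number as a block, leaving out each library, and, chosen after seeing the data, leaving out replicate 3 of every batch 1 group and, between the lines, a block shared by both. The fits were tested on simulated data. Replicate pairs differed by more than sampling noise (chi-square per gene 6.82 to 55.7), and 0 pairs were identical.

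Same-numbered replicates were taken as paired where each of 3 correlations of residuals passed 0.1 (8835 genes): in βTC3 for 10 of 10 pairs of groups in batch 1 and 1 of 1 in batch 2, between the untreated lines (0.251 to 0.715 in batch 1, 0.122 to 0.402 in batch 2), and in AJ for ALK7-CA 2 h (0.253 to 0.59) and dox 24 h (0.379 to 0.715), but not ALK7-CA 24 h (lowest 0.0525) or batch 2 comparisons. With a lower cut on the mean level (13248 genes), 8 of 10 pairs passed in βTC3 batch 1 and 0 of 1 in βTC3 batch 2 (lowest 0.00629). In AJ, 4 of 10 passed in batch 1 and 1 of 6 in batch 2. Whether replicates count as paired thus depends on the genes used, above all in βTC3 batch 2. Values with the block stand beside results of the paired comparisons where they change a call.

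The members, the lists and the comparisons were chosen with earlier results of these data known. Genes named are the 10 members in every comparison, up to 3 rises and 3 falls per comparison from the list of other granule genes, and the 2 non-members most like each member (only the first of them for 5 members; that of Pcsk1 is not reported here). Cargo, marker and receptor genes given beside these were chosen after their values were seen.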

Additional observations from a re-analysis of the deposited data

Results flagged for a closer look

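The results below stand apart because an effect differed between lines, times, plasmids or treatments by a test of the difference itself (edgeR, adjusted p under 0.05). Values are differences of log2 changes. For 24 h of ALK7-CA, βTC3 minus AJ, they were 0.45 for Chgb, 0.81 for Scg2, 0.61 for Scg3, 0.37 for Scg5, 0.29 for Cpe and 0.91 for Ptprn2. For activin B, βTC3 minus AJ vector cells, they were −0.55 for Scg2, 0.66 for Scg3, 0.42 for Pcsk1, 0.32 for Pcsk2, −0.39 for Cpe and −0.66 for Ptprn. The response of Scg2 thus differed between lines in opposite directions under ALK7-CA and under the ligand.

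For the ALK7-CA effect at 24 h minus that at 2 h, the differences were −0.27 for Chgb, −0.48 for Scg2, 0.55 for Scg3, −0.45 for Pcsk1 and −0.38 for Cpe in βTC3 and −0.98 for Chgb, −0.77 for Scg2, −0.97 for Pcsk1, −0.76 for Cpe and −0.68 for Ptprn2 in AJ. In AJ, Pcsk1 and Chgb passed upward at 2 h and downward at 24 h. For activin B in AJ, ALK7 minus vector cells, they were −0.22 for Pcsk2 and −0.30 for Ptprn2. For ALK7-CA at 24 h minus activin B, where batch and dox differ as well, they were 0.37 for Scg2 and 0.36 for Cpe in βTC3 and −0.88 for Chgb, −0.98 for Scg2, −0.27 for Scg5, 0.54 for Pcsk1, −0.32 for Cpe and −0.81 for Ptprn2 in AJ vector cells. No explanation of these differences was tested.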

How the results depend on the processing

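Over 210 member values (10 members in 21 comparisons) and 2960 alternative fits of them, 2836 kept their direction and side of the threshold or had passed it neither way, 63 lost the call, 61 gained it and 0 turned direction while called. With DESeq2, 10 gained a call and 0 lost one; with RLE scaling 1 gained; without a filter 7 lost; with the stricter filter 5 gained; and with the replicate block 26 gained and 0 lost a call. The cause was not tested.

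The number of members past the threshold moved by more than 1.5 times in these cases. βTC3 ALK7-CA at 2 h went from 0 to 2 with the block. βTC3 dox 24 h went from 3 to 7 with the block and to 5 without replicate 3 of every group. AJ dox 24 h went from 0 to 1 with the stricter filter, 2 with the block, 2 without replicate 3 of every group and 1 with DESeq2. The βTC3 change from 2 to 24 h went from 5 to 3 without a filter, to 8 with the block and to 3 to 5 when single libraries were left out (3 without replicate 1 of vector 24 h, ALK7-CA 2 h or ALK7-CA 24 h). In AJ, where replicates of batch 2 share only a number, the ligand effect of ALK7 minus vector cells went from 2 to 1 without a filter, to 4 with the block and to 4 with DESeq2. There DESeq2 called 3.1% of all genes. The shares of all genes called without a filter, with the stricter filter, with this block or with single libraries left out are not given. Those counts of members thus have no background beside them. The βTC3 difference of ALK7-CA and activin B went from 2 to 6 with the block and to 0 to 3 when single libraries were left out. For βTC3 against AJ, a block shared by both lines (chosen after seeing the data) called all 10 members in each batch. Without it, 9 were called in batch 1 and 10 in batch 2, where 72.1% and 76.1% of all genes were called. The share of all genes with the shared block is not given, so its count of members has no background beside it. DESeq2 put the median of all genes at 0.15 in βTC3 minus AJ in batch 1 (−0.02 with edgeR). No other comparison moved by over 0.1.

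Limits are the 3 wells per group, with GC-linked replicate 3 values in batch 1 for Chga and Ptprn, the βTC3-like counts of AJ ALK7-CA 24 h replicate 1, and dox that differs between batches. In simulated counts, 62.0% of 1.5-fold rises were called in βTC3 ALK7-CA 24 h (15801 genes). It was 22.0% for the ALK7-CA difference between lines (16194 genes) and 26.0% for AJ ALK7-CA minus activin B (15211 genes), so smaller changes can be missed. The simulation changed 50 well-counted genes per fold size and no others. In the data, 13.5%, 17.5% and 15.6% of genes were called in these comparisons. The Benjamini-Hochberg cut thus differs, and these rates are not those of the tests reported.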
